A study of Drosophila melanogaster with 3 samples.

Results

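The genes described here encode the general transcription factors that start RNA polymerase II transcription, together with the testis TAFs of Drosophila melanogaster, and the question was which of their promoters carried a peak of the zinc finger protein Trem. They were chosen by symbol, from the protein-coding genes of the Ensembl annotation: symbols that start with Taf and a digit or with TfII, with Tbp, Trf, Trf2, e(y)1 and the testis genes can, sa, mia, nht and rye. This gave 31 of 13968 protein-coding genes, of which 26 were general and 5 were testis TAFs. The names e(y)1 and rye are not symbols of this annotation and were matched, through synonyms in the RefSeq gene table, to Taf9 and Taf12L, the names used below. In that table rye is also an older name of an acetylcholine receptor gene, which was not taken. The chromatin immunoprecipitation (ChIP-seq) libraries came from whole embryos aged 0 to 14 hours, males and females together, of 1 transgenic line that stably carried Trem with GFP fused to its C terminus. All 3 biological replicates belonged to this single group, and the precipitation was made with an antibody against GFP, per the labels' description, while another label names trem itself as the antibody. No sample without the tag, and no input sample, was analysed here, and the depth of the libraries is unknown.

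TFIID is the complex that recognises a promoter for RNA polymerase II. It is built from the TATA-binding protein, Tbp, and a set of TBP-associated factors, the TAFs, many of which pair with each other through histone folds. TFIIA and TFIIB join TFIID on the DNA, TFIIF arrives with the polymerase, and TFIIE and TFIIH prepare the opening of the DNA. In Drosophila spermatocytes 5 paralogues of TAFs, the testis TAFs, are made, and mutants in them arrest at meiosis with many spermatid differentiation genes silent. Trem itself is known for a role in the formation of meiotic double-strand breaks in Drosophila oocytes. The embryos studied here contain no spermatocytes, and in whole embryos a peak in many cells and a stronger peak in few cells cannot be told apart.

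Trem-eGFP peaks lay at most promoters of the general factors and at 1 promoter of the testis TAFs. A gene was counted as having a peak when a summit of the list that passed the irreproducible discovery rate filter (the IDR list, 7477 peaks) was at most 500 bp from one of the transcription start sites (TSSs) annotated for it. By this measure 22 of the 26 general genes had a peak, or 84.6%, against 41.7% of all protein-coding genes. Among the testis TAFs only mia had one, so 1 of 5, or 20%. In the 7477 strongest peaks of each replicate, the general genes with a peak numbered 20 in replicate 1, 24 in replicate 2 and 22 in replicate 3, a share of 84.6% ± 7.69 (SD, n = 3), and 18 had one in all 3. The background in the same lists was 40.6%, 41.4% and 40.4% of protein-coding genes, or 40.8% ± 0.498 (SD, n = 3). In each of the 3 replicates the share of the general genes lay above this background. Among the testis TAFs the gene with a peak was mia in every replicate. Where a summit was given only to the gene with the nearest TSS, 14 general genes kept a peak, against 31.2% of all protein-coding genes. The lists are short and their members were not drawn at random, so these counts are a description and no test was made.

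Much of the background depends on gene arrangement. Genes whose TSS lies within 1000 bp of the TSS of an upstream neighbour on the opposite strand, called head-to-head here, had a peak in 72.0% of cases, and genes with no such neighbour in 24.4%. Of the 26 general genes 18 were head-to-head, and 14 of these had a peak, or 77.8%, a share near the background of their class. The other 8 general genes had no head-to-head neighbour, and all 8 had a peak: Taf1, Taf9, Tbp, Trf2, TfIIA-S, TfIIEalpha, TfIIEbeta and TfIIFbeta. None of the 5 testis TAFs was head-to-head. Their share of 1 in 5 was near the 24.4% found for genes arranged like them. In the whole IDR list the general genes therefore stood above the background mainly through those without a close divergent neighbour, and the testis TAFs did not stand clearly below theirs. The count of 8 of 8 includes weaker peaks. In the stronger 50% of the list 4 of these 8 general genes had a peak, and 12 of the 18 head-to-head ones. Over all protein-coding genes 1220 of 8916 without such a neighbour and 2541 of 5052 head-to-head genes had one there. In that part of the list both groups of general genes stood above their class.

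**Figure D1:**
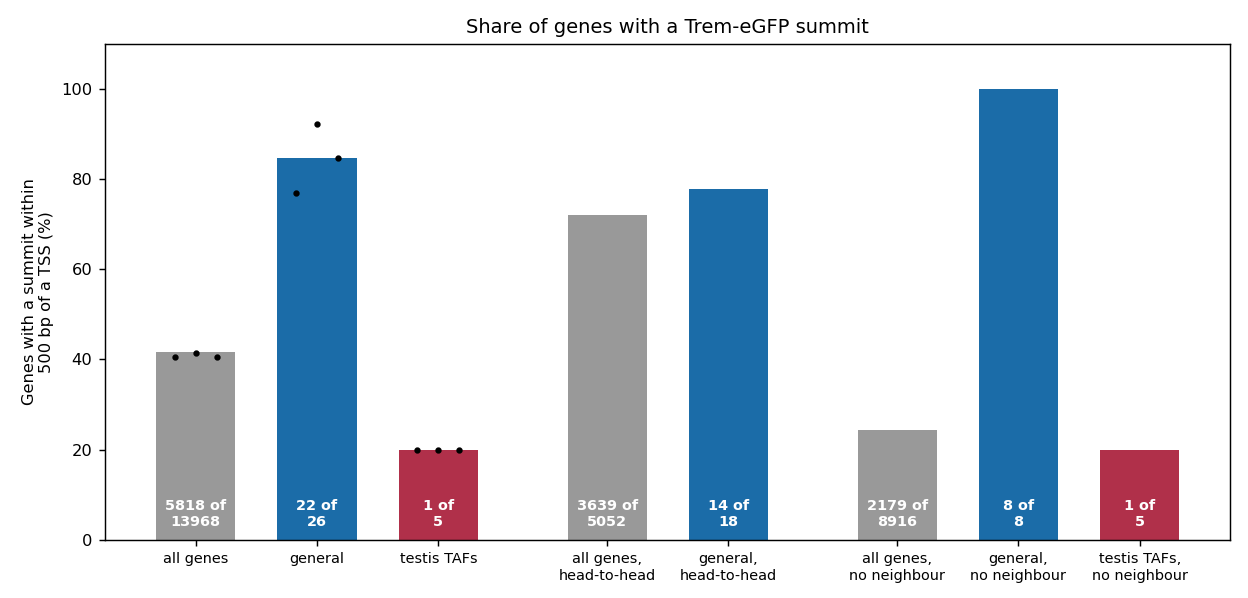
Share of genes with a Trem-eGFP summit within 500 bp of a TSS, in percent, for all protein-coding genes (grey), the general genes (blue) and the testis TAFs (red). Bars give the IDR list, with the numbers of genes at their foot. Black points give the 7477 strongest peaks of replicates 1, 2 and 3 from left to right. The 8 general genes without a head-to-head neighbour all had a peak, against 24.4% of such genes.

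Among the 14 TAFs of TFIID, 12 had an IDR peak, or 85.7% against 41.7% of all protein-coding genes, and the exceptions were Taf3 and Taf8. Of these 14 genes 12 were head-to-head, with a peak at 10, or 83.3%, against the 72.0% of that class. The signal value given below is the authors' value per peak, comparable only within a list, and rank 1 is the strongest peak of that list. Taf5 (FBgn0010356, chr2R:10877312-10879673 on dm6, minus strand) encodes a scaffold subunit with WD40 repeats, and its peak was the strongest of all 31 genes. The summit, 155 bp upstream of its TSS, had an IDR signal of 825.3 and rank 458. It lay between genes and was also 146 bp upstream of Pex6, a peroxisome biogenesis gene that points the other way. In replicates 1, 2 and 3 the signal there was 436.4, 202.1 and 193.5, at ranks 441, 576 and 580. Each library thus placed it near the top of its list, and no other member ranked higher in replicate 1.

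Taf2 (FBgn0011836, chr3L:9884411-9888683, minus strand) encodes a subunit that touches the DNA around the initiator. Its strongest summit had a signal of 686.0 at rank 635, 125 bp upstream of its TSS and 46 bp inside the neighbouring gene CalpB, a calpain protease gene, in an exon outside the coding sequence. A second IDR summit, with a signal of 583.8 at rank 883, lay 325 bp upstream of Taf2. Replicates 2 and 3 had the first summit at ranks 962 and 880, with signals of 158.1 and 158.6. Replicate 1 had no summit within 100 bp of it, and had one at rank 506, with a signal of 391.1, near the second summit instead. The promoter region carried a strong peak in all 3 libraries, and the position of the summit differed between them.

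TAFs that bind each other as pairs had peaks of unequal strength in several cases. Taf6 and Taf9 form a histone-fold pair, with IDR signals of 437.0 at Taf6 (rank 1629) and 190.5 at Taf9 (rank 5668). Taf4 and Taf12 form another, with 308.5 at Taf4 (rank 3032) and 383.4 at Taf12 (rank 2113). Taf11 and Taf13 pair likewise, with 180.9 at Taf11 (rank 6008) and 399.8 at Taf13 (rank 1962). Within these pairs the weaker peak ranged from close to the other, at Taf4 and Taf12, to less than 50% of it, at Taf6 with Taf9 and at Taf11 with Taf13. In replicate 1 the order of Taf4 and Taf12 was reversed, at ranks 2054 and 2921. Replicate 3 had no summit within 100 bp of that of Taf4. Taf6 with Taf9 and Taf11 with Taf13 kept their order in each replicate. The summit of Taf6 lay 186 bp upstream of its own TSS and 147 bp upstream of ash1, which encodes a trithorax group histone methyltransferase.

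In replicates 1, 2 and 3 the summit of Taf6 had signals of 154.8, 129.2 and 145.6, at ranks 2746, 1527 and 1090. The summit of Taf12, 44 bp upstream of its own TSS and 9 bp from that of Ho (heme oxygenase), had signals of 147.9, 126.0 and 133.9, at ranks 2921, 1604 and 1332. In both cases replicate 1 ranked the peak lowest. The summit of Taf13, 156 bp upstream of its own TSS and 33 bp from that of nesd, had signals of 197.1, 111.7 and 77.8, at ranks 1821, 2076 and 3723. Here replicate 3 ranked it lowest. The summit of Taf11 lay 291 bp upstream of its own TSS and 18 bp from that of und, at ranks 7678, 6063 and 5793.

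Taf10 and Taf10b, tandem paralogues that encode alternative versions of the same subunit, stand head-to-head with TSSs 45 bp apart. A single IDR summit served both, with a signal of 362.5 at rank 2329, 51 bp upstream of Taf10 and 6 bp inside Taf10b. Its ranks were 4554, 855 and 2524 in replicates 1, 2 and 3, a 5.33-fold range and the widest among the members whose summit was found in all 3. The peak cannot be assigned to either paralogue. Taf1, the largest subunit and the scaffold that holds Taf7, had a summit 8 bp upstream of its TSS with a signal of 344.9 at rank 2558. Its ranks were 3553, 4016 and 1681 in the replicates. Taf7 had a signal of 256.8 at rank 3929, in an intron, 133 bp upstream of an internal TSS and 142 bp upstream of EMC1. Its ranks were 2714, 2997 and 12256, so replicate 3 had it far lower than the other libraries. Taf4 also had its summit in an intron, 84 bp upstream of an internal TSS, at ranks 2054 and 2718 in replicates 1 and 2 and with no summit within 100 bp in replicate 3.

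Taf3 and Taf8, both partners of Taf10 in TFIID, had pooled peaks just under the IDR list, whose lowest signal was 144.4. The pooled signal was 133.9 at Taf8 (rank 7992, summit 72 bp upstream) and 133.0 at Taf3 (rank 8040, summit 103 bp downstream, in an exon outside the coding sequence). In the whole replicate lists Taf8 had ranks of 7132, 12891 and 11109. The strongest summits near the TSS of Taf3 ranked 21970, 4351 and 4789. Each gene was therefore strong enough for the 7477 strongest peaks in some replicates, 1 for Taf8 and 2 for Taf3, and not in the others. With any pooled peak counted, all 14 TAFs of TFIID and 25 of the 26 general genes had a peak, against 58.8% of protein-coding genes, and the testis TAFs stayed at 1 of 5.

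The TBP family has 3 genes in the fly, and they covered a wide range. Tbp (FBgn0003687, chr2R:21686192-21687642, minus strand) had a summit 60 bp upstream of its TSS with a signal of 471.8 at rank 1406. The replicates gave it signals of 194.0, 135.1 and 118.9, at ranks 1881, 1371 and 1766, close together and all far inside the 7477 strongest. Trf2, which replaces TBP at many promoters without a TATA box, had the weakest IDR peak of the 31 genes, with a signal of 174.7 at rank 6223. Its summit lay in an intron of the gene, 46 bp upstream of an internal TSS, at ranks 10865, 6032 and 4539 in the replicates, so replicate 1 placed it outside its strongest 7477. Around the first TSS of Trf2 only weaker pooled peaks were found, the strongest with a signal of 104.3. Trf, which in the fly works with Brf in transcription by RNA polymerase III, had no IDR peak. Its pooled summit, 38 bp downstream of its TSS, had a signal of 115.1 at rank 9107, and it ranked 8354, 7385 and 14713 in the replicate lists. Trf shares its promoter region with the Mediator gene MED20, whose TSS is 47 bp away.

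The TFIIA, TFIIB, TFIIE and TFIIF genes had a peak in 7 of 8 cases, or 87.5% against 41.7% of all protein-coding genes. TFIIA stabilises TBP on the DNA, and its TfIIA-L gene (FBgn0011289, chr3R:27251112-27256463, plus strand) had a signal of 777.2 at rank 504. The replicates gave this summit signals of 387.0, 202.2 and 204.1, at ranks 513, 575 and 521, the narrowest range of ranks of any member, 1.12-fold. It lay 96 bp upstream of an internal TSS, in an intron of TfIIA-L, and 152 bp upstream of pll, which encodes the Toll pathway kinase Pelle and points the other way. The head-to-head neighbour of TfIIA-L at its first TSS is TTLL6B, and no IDR summit lay within 500 bp of that TSS. TfIIA-S (FBgn0013347, chr3R:23890388-23891060, minus strand), the gene of the small subunit, had a summit 60 bp upstream of its TSS with a signal of 571.0 at rank 934. Its replicate signals were 259.4, 179.2 and 171.4, at ranks 1104, 749 and 740. In each of the 3 libraries the peak of TfIIA-L ranked above that of TfIIA-S.

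TfIIA-S-2, a paralogue of TfIIA-S on the X chromosome, was the general gene with no peak near its TSS in the IDR or pooled list. The nearest pooled summit was 1600 bp away with a signal of 66.1, and the nearest IDR summit was 15073 bp away. TfIIB, which positions the polymerase, had a signal of 290.2 at rank 3318 in a summit 260 bp upstream of its TSS and 160 bp upstream of Bug22, and a second IDR summit 50 bp upstream of its own TSS with a signal of 220.4. TFIIF showed 373.1 at TfIIFalpha (rank 2223, 112 bp upstream, and 27 bp upstream of CG1024) and 187.3 at TfIIFbeta (rank 5799, 38 bp upstream). The replicates gave TfIIFalpha signals of 125.8, 139.9 and 104.8, at ranks 3703, 1272 and 2262. TFIIE showed 322.3 at TfIIEalpha (rank 2837, 42 bp upstream) and 212.5 at TfIIEbeta (rank 5019, 45 bp upstream). For TFIIA, TFIIE and TFIIF alike, the larger subunit had the higher signal of the pair, and it ranked higher in each of the 3 replicates. TfIIS, which rescues stalled polymerase after initiation, had a signal of 404.1 at rank 1914, with its summit 4 bp downstream of its TSS. Its replicate signals were 152.7, 159.4 and 103.8, at ranks 2810, 940 and 2300, highest in replicate 2.

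**Figure D2:**
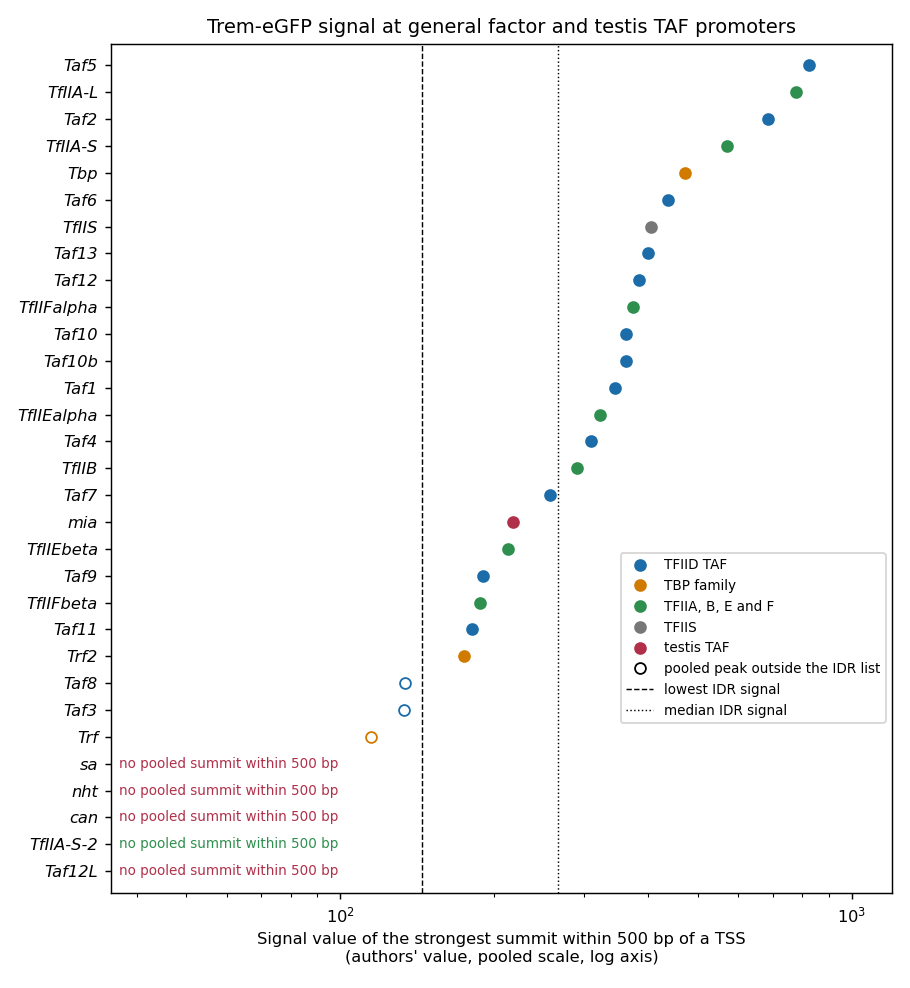
Signal value of the strongest summit within 500 bp of a TSS for each of the 31 genes, in the authors' units on a log axis, coloured by role. Filled points are in the IDR list, open points are pooled peaks outside it, the dashed line is the lowest IDR signal (144.4) and the dotted line the median (266.3). All general genes but TfIIA-S-2 have a point, and of the testis TAFs only mia does.

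The testis TAFs can be set beside their general counterparts gene by gene. In 3 of the 5 pairs the general gene had an IDR peak and the testis gene had none: Taf4 and nht, Taf5 and can, Taf12 and Taf12L. In each of these 3 pairs the general gene is head-to-head, a class with a background of 72.0%, and the testis gene is not, with a background of 24.4%, so that paralogue and gene arrangement cannot be told apart there. In the pair Taf6 and mia both had one, and in the pair Taf8 and sa neither did. The peak of mia (FBgn0014342, chr3R:5548115-5551168, minus strand) had a signal of 218.0 at rank 4866, about 50% of the 437.0 at Taf6. Taf6 is head-to-head and mia is not, so paralogue and gene arrangement cannot be told apart in this pair either. The Taf6 summit was also nearer the TSS of ash1, at 147 bp, than that of Taf6, at 186 bp. The replicates gave mia signals of 91.3, 78.1 and 53.1, at ranks 5478, 3773 and 6277, all inside the strongest 7477. Its summit lay 3 bp downstream of an internal TSS, in an exon outside the coding sequence, and more than 500 bp from the outermost TSS. With only the outermost TSS of each gene counted, no testis TAF had a peak.

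The other testis TAFs had no IDR or pooled summit within 500 bp of a TSS. For can, the nearest IDR summit was 877 bp upstream, with a signal of 169.1 at rank 6413, and no other protein-coding TSS was closer to it. With a window of 1000 bp can would count as having a peak. For nht the nearest pooled summit was 543 bp from the TSS with a signal of 93.6, and replicates 1 and 3 each had a weak summit 476 and 417 bp upstream, at ranks 9427 and 23070. For sa the nearest pooled summit was 7266 bp away with a signal of 37.4. Taf12L was the most distant, with the nearest IDR or pooled summit 93034 bp away. It lies in a stretch of 196522 bp on chromosome 2L (from 4597833 to 4794355) in which none of the 5 lists has a summit, the second longest such stretch of the arm, where neighbouring summits of any list have a median spacing of 131 bp. The stretch holds 13 whole protein-coding genes, among them the insulator factor genes Elba1 and Elba3, so the lack of peaks extends far beyond Taf12L. A peak missing from a list does not show that the protein is absent there, since the lists stop at a fixed number of peaks.

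The sequences just upstream of the TSS show where the summits lay at some general genes, and what the testis promoters without a peak look like. The bound general genes printed all have their summit inside the run and do not stand for the others. Of the 22 general genes with a peak, 14 had the summit within 100 bp of a TSS. Each run ends at the base before the TSS, reads in the direction of the gene and holds no annotated exon. The bases were read from the RefSeq copy of dm6. For the bound general genes, capitals mark the 11 bases centred on the IDR summit.
TfIIA-S (chr3R:23891061-23891160, minus strand): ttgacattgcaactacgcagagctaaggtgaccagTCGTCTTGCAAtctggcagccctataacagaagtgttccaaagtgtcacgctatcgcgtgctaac
TfIIEalpha (chr3L:11681938-11682037, plus strand): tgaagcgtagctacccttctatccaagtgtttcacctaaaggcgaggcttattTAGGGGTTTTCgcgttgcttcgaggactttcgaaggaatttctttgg
Taf9 (chrX:17842061-17842160, plus strand): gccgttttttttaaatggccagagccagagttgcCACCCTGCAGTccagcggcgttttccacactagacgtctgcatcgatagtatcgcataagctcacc
Taf1 (chr3R:6646789-6646888, plus strand): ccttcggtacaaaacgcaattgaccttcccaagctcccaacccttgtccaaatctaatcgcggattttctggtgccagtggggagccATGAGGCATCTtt
Trf2 (chrX:8421265-8421364, plus strand): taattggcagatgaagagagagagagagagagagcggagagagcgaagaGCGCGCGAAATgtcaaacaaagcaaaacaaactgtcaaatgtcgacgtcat
Taf12 (chr3R:11679691-11679742, minus strand): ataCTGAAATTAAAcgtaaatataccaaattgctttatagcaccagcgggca
For the genes without an IDR peak no base is in capitals.
can (chr3L:10267112-10267211, minus strand): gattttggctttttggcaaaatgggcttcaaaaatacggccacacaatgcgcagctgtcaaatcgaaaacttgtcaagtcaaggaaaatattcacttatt
sa (chr3L:21406739-21406838, minus strand): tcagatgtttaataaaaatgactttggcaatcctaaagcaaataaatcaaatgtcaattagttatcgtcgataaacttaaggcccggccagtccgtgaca
nht (chr2L:15318902-15319001, minus strand): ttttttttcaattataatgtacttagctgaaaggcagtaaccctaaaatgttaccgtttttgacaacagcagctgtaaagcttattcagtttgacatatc
Taf12L (chr2L:4701486-4701585, minus strand): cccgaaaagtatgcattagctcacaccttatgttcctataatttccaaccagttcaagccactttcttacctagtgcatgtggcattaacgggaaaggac
Trf (chr2L:8072849-8072894, plus strand): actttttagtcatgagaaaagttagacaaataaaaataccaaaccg

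The capitals are a guide to position only. The summits of the single replicates were shifted from the IDR summit by a median of 15 bp and by up to 78 bp, over the 64 replicate summits within 100 bp. In the window from 250 bp upstream to 50 bp downstream of the outermost TSS, GC content had a median of 35.7% in the general genes (range 25.7 to 48.7%) and 33.3% in the testis TAFs (range 28.7 to 42.3%), against 38% over all protein-coding genes. These ranges overlap. The E-box CAGCTG was in this window in 3 of 5 testis TAFs (can, nht and Taf12L) and in 4 of 26 general genes, against 17.6% of all protein-coding promoters. The TATA box letters TATAAA were in 4 of 5 testis TAFs and 12 of 26 general genes, against 45.8%. Other words searched were TATCGATA, in 0 of 5 testis TAFs and 2 of 26 general genes, against 9.36%, and GGTCACAC, in 0 and 4, against 7.69%. GAGAG was in 1 and 2, against 29.7%, and CACAC in 3 and 15, against 45.5%. TCAGT, sought on the sense strand only, was in 3 and 4, against 36.0%.

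Over the 23 genes with an IDR peak, the summits lay close to and upstream of the start sites. The median position was 60 bp upstream of the nearest own TSS, against 99 bp over all 5818 protein-coding genes with a peak, and 20 of the 23 summits were upstream, or 87.0% against 89.4%. Within 100 bp of the TSS lay 15 of 23, or 65.2%, against 48.8%. The 8 general genes without a head-to-head neighbour were all within 100 bp, against 58.5% of all such genes with a peak. The median of these 8 was 45.5 bp upstream, against 73 bp for their class. The 14 head-to-head general genes with a peak had a median of 118.5 bp upstream, against 114 bp for their class. Within 100 bp lay 42.9% of these 14, against 43.0% of their class. Of the 23 genes, 12 had a strongest summit that lay within 500 bp of another protein-coding gene's TSS, and for 9 of them, Taf2, Taf5, Taf6, Taf10, Taf11, Taf12, Taf13, TfIIB and TfIIFalpha, that other TSS was the nearer.

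**Figure D3:**
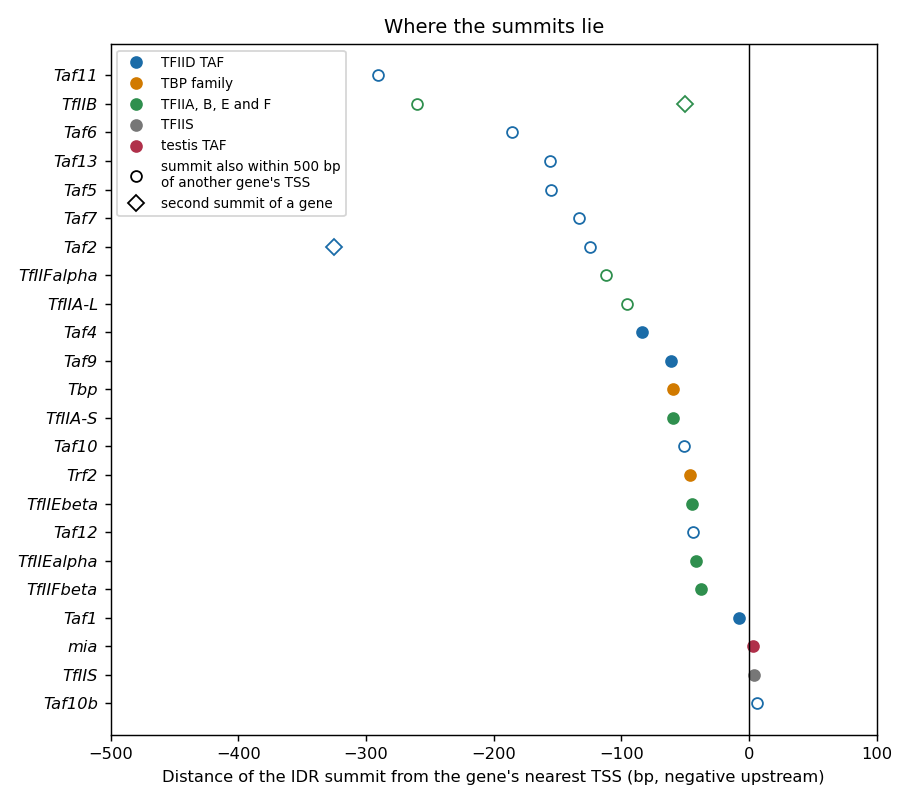
Distance in bp from each IDR summit to the nearest TSS of its own gene, negative upstream, for the 23 genes with a peak. Open markers are summits also within 500 bp of another protein-coding gene's TSS, and diamonds are second summits. Filled circles, the summits not shared with a neighbour, all lie within 100 bp of the TSS.

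By annotation, 12 of the 23 strongest summits lay between genes, 7 in an exon outside coding sequence and 4 in an intron. The intronic summits were those of Taf4, Taf7, TfIIA-L and Trf2, each upstream of an internal TSS. None lay in coding sequence. In strength the genes were ordinary for promoters with a peak. Their median IDR signal was 362.5, against 329.3 over all such genes, and 3 of 23 were among the 748 strongest peaks of the IDR list, or 13.0% against 14.7%. These 3 were Taf5, TfIIA-L and Taf2. The strongest peak of the whole list had a signal of 12214, far above any of them.

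The replicates held nearly all of these summits. Taf10 and Taf10b share a summit, so the 23 genes had 22 distinct strongest summits, of which 20 had a summit within 100 bp in the full list of each replicate, or 90.9%, against 86.8% of the 4694 IDR peaks at protein-coding TSSs. The IDR list was made from these replicate lists, so this share describes the lists and is not separate evidence. The exceptions were Taf2 and Taf4. Over the 20 distinct summits found in all 3, the lowest rank was in replicate 1 for 13, in replicate 2 for 2 and in replicate 3 for 5. Over all IDR peaks at promoters found in all 3, replicate 1 had the lowest rank in 39.3%. Median ranks of the 20 summits were 3275 in replicate 1, 2350 in replicate 2 and 2589 in replicate 3. Over the 21 genes with such a summit, Taf10 and Taf10b both counted, the ranks in the 3 libraries spanned a median of 2.04-fold. This range is one of ranks, over strong and weak members alike. Members close in IDR signal could change order between libraries. Taf10 stood above Taf1 in the IDR list, at ranks 2329 and 2558, and Taf1 ranked higher in replicates 1 and 3. Small differences in IDR signal between members are therefore not read as an order.

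**Figure D4:**
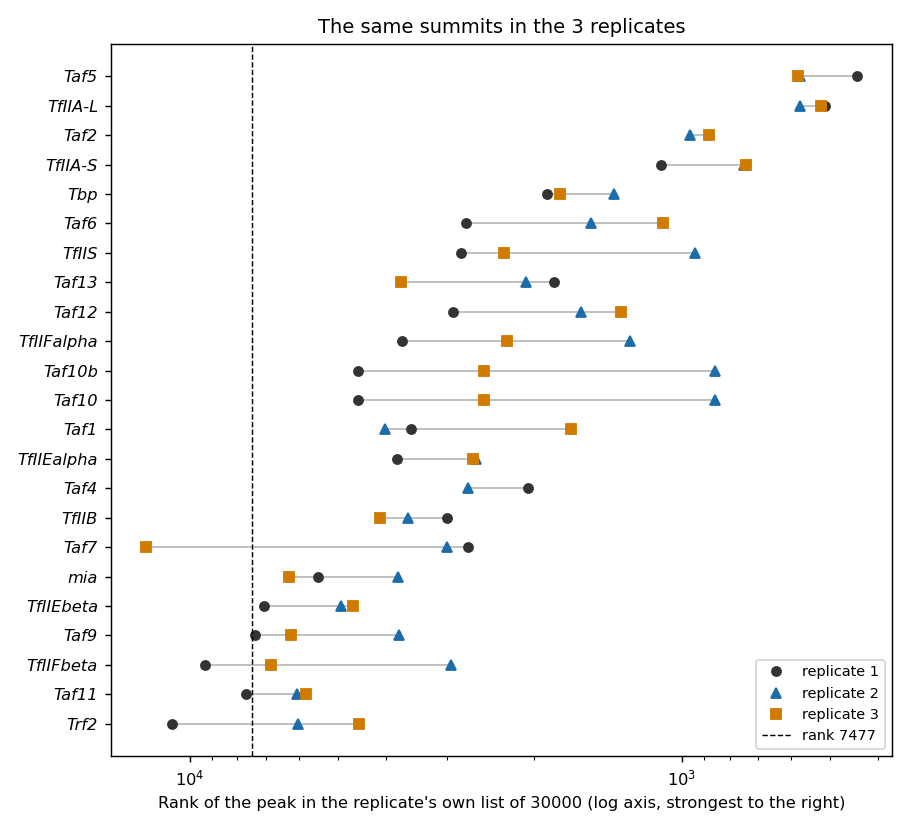
Rank of each summit in the list of replicate 1, 2 or 3, each of 30000 peaks, on a log axis with the strongest to the right, for the 23 genes with an IDR peak. Grey lines join the lowest and highest rank, and the dashed line marks rank 7477. Of the summits shown, those of Taf5, TfIIA-L and TfIIA-S rank highest in each of the 3 libraries, and those of Taf7, Taf11, TfIIFbeta and Trf2 cross the dashed line.

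Other parts of the initiation machinery, outside the symbol rule, had peaks too. Of the 10 TFIIH genes 7 were head-to-head, a class with a background of 72.0%, against 24.4% for genes without such a neighbour. All 10 had an IDR peak, against the 41.7% of all protein-coding genes. The strongest was at Ssl1, a core subunit gene, with a signal of 1949 at rank 187, 166 bp upstream, in the region it shares with the chromatin gene Chro. Next came mrn, listed also as Tfb2, with 749.3, and Mat1, a subunit of the kinase module, with 540.6. The kinase gene Cdk7 had 401.9, and its cyclin gene CycH had the lowest signal of the list, 166.8. The 3 genes that regulate TBP all had a peak, with signals of 697.7 at NC2alpha, 608.6 at Hel89B, the fly Mot1 homologue, and 209.5 at NC2beta. Each of these 3 was head-to-head, the class with the background of 72.0%. So were 2 of the 4 other initiation factors. All 4 of these other factors had a peak. They were Brf with 856.6 and Bdp1 with 434.0, both of RNA polymerase III, the coactivator gene mbf1 with 509.8 and the RNA polymerase I factor gene Tif-IA with 177.0.

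The testis meiotic arrest complex works with the testis TAFs in spermatocytes, and 3 of its 8 genes had an IDR peak, or 37.5%, near the 41.7% of all protein-coding genes. These were achi with a signal of 1626 at rank 221, Caf1-55 with 525.5 at rank 1121 and mip40 with 198.1 at rank 5420. All 3 were head-to-head genes, a class with a background of 72.0%. The genes aly, comr, topi, tomb and vis had no IDR or pooled summit within 500 bp, and 4 of these 5 had no head-to-head neighbour. As achi and vis are tandem copies with near-identical sequence, reads may have been split or misplaced between them, and their values are uncertain. Caf1-55 also serves in chromatin complexes of many tissues, whereas aly, comr, topi and tomb are known for their testis roles. By arrangement, 3 of 4 head-to-head genes and 0 of 4 others in this list had a peak, where the backgrounds of these classes are 72.0% and 24.4%.

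Motif letters near the summits were searched within 100 bp on either side, on both strands except where said, over the 24 distinct member summits and 4670 other promoter summits. The DRE, TATCGATA, bound by Dref in flies, was at 1 of 24 (Tbp), or 4.17%, against 13.8% of the others. The core of the M1BP motif, GGTCACAC, was also at 1 (Taf1), against 10.8%. The E-box CAGCTG was at 2 (the shared Taf10 and Taf10b summit, and TfIIEbeta), against 14.7%. GAGAG was at 2 (TfIIA-S and Trf2), against 17.6%, and TCAGT, a part of the initiator sought on the sense strand only, was at 2, against 17.9%. TATAAA was at 5, or 20.8%, against 34.7%, and CACAC was at 9, or 37.5%, against 38.3%. Each of these was at a smaller share of the member summits, for CACAC by less than 1 percentage point, and with 24 windows a single summit moves a share by 4.17 percentage points. The promoter windows of the general genes were not lower for every word. There GGTCACAC was at 15.4% against 7.69% of all promoters, CACAC at 57.7% against 45.5% and TATAAA at 46.2% against 45.8%. The rest of these words were at smaller shares there too.

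A word frequent at the strongest Trem-eGFP promoter peaks was not found at the members' summits. Among the 380 promoter summits of other genes within the 500 strongest IDR peaks, the most frequent 8-base words relative to all promoter summits included CTGCCAAC and AGTTGGCA, at 32.9% and 30.3%, against 3.43% and 3.73% of all 4670. Both hold the core TGCCAAC or its reverse complement, which was at 39.5% of those strongest summits and at 6.36% of the 4670. None of the 24 member summits held it within 100 bp of its position. As 1 summit of 24 is 4.17%, this is not far from the share of the 4670. Of the members, Taf5 alone had a summit among the 500 strongest, so few of them are of the class where the word is frequent. The search was made after the values had been seen, and a missing word says only that these letters are not in these windows. In the promoter windows Taf5 alone among the 26 general genes held the core, and no testis TAF did, against 5.76% of all protein-coding promoters.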

How the data were processed

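The authors deposited peak lists on dm6, called against a control, for 3 replicates, for their pooled reads and for the IDR filter, per the deposited file lists. For the aligner, peak caller and IDR settings, names and versions were not given in the sources used. The deposited signal value is scaled within a list and was compared only within it. The deposited -log10 q-value was tied at 4.21 over the IDR list and was not used. The replicate and pooled lists held 30000 peaks each, and the IDR peaks were the 7477 strongest pooled ones. Read counts were not analysed here, so depth is unknown and no counting interval is given. Nothing in the labels says that the replicates shared a batch.

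Summits were assigned to TSSs of protein-coding genes of Ensembl release 115 within 500 bp, and replicate lists were limited to their 7477 strongest peaks for counts. Summits within 100 bp counted as shared. The script was tested on simulated peaks with known answers. Python 3.11.15, pandas 2.3.3 and numpy 2.4.6 were used. Members, pathway lists and motifs were chosen with earlier results of these data known. Signal, distance and replicate values are given for the 10 bound general genes with the highest IDR signal and for mia, and for the testis TAFs and other genes without an IDR summit as far as the lists hold a peak near them. Neighbours are named where their TSS lies within 500 bp of a member's IDR summit. The control experiment named in the labels, and protein sequences, were not used here. Alternatives changed the window, the TSSs, the peak list, the assignment and the replicates.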

Additional observations from a re-analysis of the deposited data

How the results depend on the processing

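The number of general genes with a peak, 22, was 21 with a window of 250 bp and 22 with 1000 bp, 20 with only the outermost TSS, 16 with the stronger 50% of the IDR list, 25 with any pooled peak and 22 where the peak interval was used. It was 14 with the nearest TSS only. The testis TAFs with a peak, 1 at first, were 2 with a window of 1000 bp (can is added), 0 with only the outermost TSS and 0 with the stronger 50% of the list (mia is lost each time). Over all protein-coding genes the share of 41.7% fell to 26.9% with the stronger 50% of the list. With IDR summits kept only where the strongest lists of both other replicates held them, the general genes numbered 17 to 20, the testis TAFs 1 each time and all genes 33.4% to 34.5%; Taf11, TfIIFbeta and Trf2 were lost without replicate 2 and without replicate 3, and Taf4 and Taf7 without replicate 1 and without replicate 2. The median position of the members stayed between 46 and 72 bp upstream under every alternative run. Summits in all 3 replicates, 21 of 23, were 14 within 50 bp, 23 within 200 bp and 17 with only the strongest peaks of each replicate. No paired analysis was possible because the samples form 1 group. Limits are that no untagged sample was analysed here, the unknown depth, the shared promoters, which leave the target gene open to either side, and the small number of testis TAFs.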
